A study of Mus musculus with 4 samples.

Results

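The metallothioneins Mt1, Mt2 and Mt3, the metal-sensing transcription factor Mtf1, the zinc exporters Slc30a1, Slc30a3 and Slc30a10, and the zinc importers Slc39a10 and Slc39a14 were examined in mouse cerebral cortex. These 9 genes, out of 20832 genes with a symbol on the array, were selected on the knockout-over-wild-type ratios of the same arrays, so their ratios are given as a description and carry no test. The transcript accession of 11 probes led to 1 of these symbols; Mtf1 had 3 probes and every other gene had 1. RNA came from adult male mice aged 3 months on a C57BL/6N background, either wild type or Ndrg2-/-, with no treatment named beyond the genotype. On each of 4 dual-colour Agilent arrays, 1 wild-type sample (Cy3, green) was hybridised together with 1 sample labelled knockout (Cy5, red), which gives 4 samples per genotype. The dyes were never exchanged, so genotype and dye cannot be told apart. The labels do not state which exons of Ndrg2 were removed, or whether each sample was 1 animal or a pool. The p-values below therefore speak for these samples only. They set each mean log2 ratio against the spread between the 4 arrays and cannot separate genotype from dye.

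Metallothioneins are small, cysteine-rich proteins that bind zinc and copper. Free zinc in the cell activates MTF1, which binds metal response elements in the promoters of Mt1, Mt2 and the exporter Slc30a1, so that a rise in zinc raises both storage and export; glucocorticoids and cytokine signals also induce Mt1 and Mt2. In the brain, Mt1 and Mt2 are mainly astrocyte genes, Mt3 is the brain-enriched metallothionein, and Slc30a3 encodes ZnT3, which loads zinc into the synaptic vesicles of glutamatergic neurons. Proteins of the SLC30 (ZnT) family move zinc out of the cytosol, and those of the SLC39 (ZIP) family move it in.

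The gene named in the labels did not follow them. The Ndrg2 probe read 0.11, 0.37, 0.40 and 0.38 as the log2 ratio of labelled knockout over wild type on arrays 1 to 4, with a mean of 0.32 ± 0.14 (SD, n = 4; limma adjusted p = 0.0173). No sample labelled knockout was thus below its wild-type partner at this probe, and whether the probe lies in the deleted part is not known here. Every direction below rests on the labels. Between 70.6% and 73.4% of spots were well above background in the red channel and 70.7% to 72.7% in the green channel. The markers of cortical excitatory neurons and of astrocytes were all measured (6 of 6 and 10 of 10 tested). Over all genes, the log2 ratios correlated at r = 0.71 between arrays 1 and 2, at 0.59 between arrays 3 and 4, and at 0.41 to 0.48 between the other pairs; the genes are not independent replicates.

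Over the whole array, limma called 2357 of 15759 tested genes at a Benjamini-Hochberg adjusted p under 0.05, or 15.0%. Of all tested genes, 9.12% (1437) were called higher in the samples labelled knockout and 5.84% (920) lower. Under median centring without loess the calls were 10645 higher and 2326 lower. Among the 9 genes studied here, 4 were called, all of them higher; since their ratios chose them, nothing is read from that count. The median log2 ratio was 0.06 over the 9 genes and 0.01 over all tested genes. No member passed 1.5 fold in 1 direction on all 4 arrays, as 15 genes of the whole array did.

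Mt1 had the highest log2 ratio of the group. Its processed signals, in arbitrary units after background subtraction and dye normalization, were 60534 in wild type and 67992 in labelled knockout on array 1, 52270 and 65772 on array 2, 51237 and 73654.5 on array 3, and 39475 and 52676 on array 4. The labelled knockout was the brighter sample on each array, although the 2 genotypes overlapped when arrays were pooled, because array 4 was dimmer in both colours. After loess normalization the log2 ratios were 0.31, 0.44, 0.60 and 0.46, with a mean of 0.45 ± 0.12 (SD, n = 4), which is 1.37-fold.

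Mt2, which lies next to Mt1 and encodes a closely related protein, was more uneven. Its processed signals went from 36740 to 37046 on array 1, from 33052.5 to 35534 on array 2, from 32478 to 43388.5 on array 3 and from 23887.5 to 36667 on array 4. The log2 ratios were 0.09, 0.16, 0.50 and 0.64 (mean 0.35 ± 0.27, SD, n = 4; 1.27-fold). Arrays 3 and 4 thus held most of the Mt2 difference. Mt2 lay below Mt1 by 0.22, 0.29 and 0.10 on arrays 1 to 3 and above it by 0.18 on array 4. Mt1 and Mt2 transcripts are alike, the probe letters were not used here, and signal passing from one to the other probe was not tested.

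Mt3, the growth inhibitory factor of neurons, had processed signals of 7544 in wild type and 8415 in labelled knockout on array 1, 6686 and 7822 on array 2, 6722 and 7817 on array 3, and 5422 and 7196 on array 4. Its log2 ratios of 0.16, 0.21, 0.23 and 0.40 averaged 0.25 ± 0.10 (SD, n = 4; 1.19-fold). The sign was the same on all 4 arrays, as it was for Mt1, Mt2, Mtf1 and Slc30a3. Mt4, the metallothionein of stratified epithelia, had a log2 ratio of -0.04 ± 0.07 (SD, n = 4; limma adjusted p = 0.527) and a signal so low that 97.6% of tested genes were brighter. Its sign depended on the scaling: it was 0.024 from the processed signals and 0.018 without background subtraction. Under median centring without loess Mt4 read -0.44 and was called lower (limma adjusted p = 5.03e-05), while the median of all genes was 0.28.

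**Figure D1:**
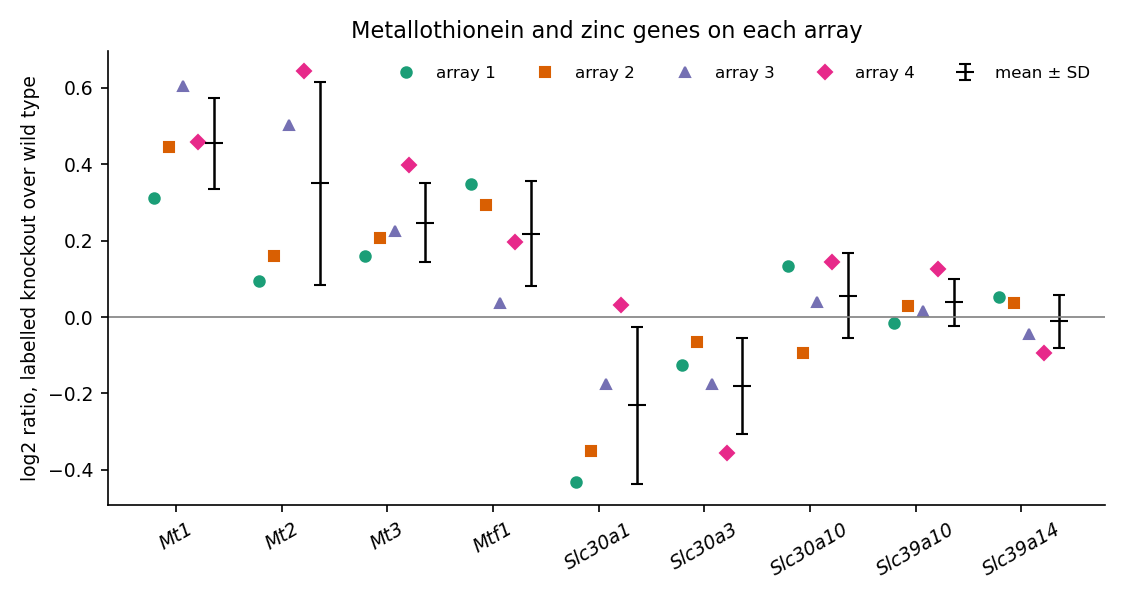
Log2 ratio of labelled knockout over wild type (vertical axis) for the 9 genes, each at its brightest tested probe; points are the 4 arrays and bars the mean with its SD. Mt1, Mt2, Mt3 and Mtf1 lie above 0 on every array and Slc30a3 below 0 on every array. Slc39a10 and Slc39a14 sit within 0.13 of 0. Without loess, with median centring alone, Slc30a1, Slc30a3 and Slc39a14 turn positive, but the median of all genes is then 0.28.

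Mtf1, the zinc sensor that drives the metallothionein promoters, was measured by 3 probes that did not give 1 value. The brightest had processed signals of 828 in wild type and 1059 in labelled knockout on array 1, 859 and 1049 on array 2, 809 and 834 on array 3, and 694 and 824 on array 4. Its log2 ratios were 0.35, 0.29, 0.04 and 0.20 (mean 0.22 ± 0.14, SD, n = 4; 1.16-fold). A dimmer probe gave 0.24, 0.17, -0.07 and -0.03 (mean 0.08 ± 0.15, SD, n = 4), and so changed sign between arrays. The third probe was well above background on no array in wild type and on 3 arrays in labelled knockout; it was not tested, and its log2 ratios were 0.37, 0.35, 0.42 and -0.11. The size of the Mtf1 difference therefore depends on the probe.

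Slc30a1 encodes ZnT1, the plasma membrane zinc exporter and a classical MTF1 target. Its processed signals were 975 in wild type and 727 in labelled knockout on array 1, 934 and 701 on array 2, 845 and 735 on array 3, and 700.1 and 698 on array 4. The log2 ratios of -0.43, -0.35, -0.17 and 0.03 averaged -0.23 ± 0.21 (SD, n = 4; 0.852-fold). Arrays 1 and 2 carried most of the difference and array 4 none. With median centring in place of loess, which moved the median of all genes to 0.28, Slc30a1 read 0.10, still below that median.

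Slc30a3, the vesicular transporter of zinc-rich nerve endings, was 652 in wild type and 591 in labelled knockout on array 1, 593 and 558 on array 2, 634 and 555 on array 3, and 537 and 406 on array 4. Its log2 ratios were -0.13, -0.07, -0.18 and -0.36 (mean -0.18 ± 0.13, SD, n = 4; 0.883-fold), or 0.13 under median centring, again below the median of all genes. Slc30a10, which exports manganese as well as being named among the zinc transporters, was dim, at 154 to 198 in wild type and 168 to 191 in labelled knockout. Its log2 ratios of 0.13, -0.09, 0.04 and 0.14 averaged 0.06 ± 0.11 (SD, n = 4). It read 0.01 from the processed signals and 0.23 under median centring, where all 3 exporters were above 0 and below the median of all genes.

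Both importers differed little. Slc39a10 (ZIP10), a plasma membrane zinc importer, ranged from 1799 to 2511 in wild type and from 1956 to 2455 in labelled knockout, with log2 ratios of -0.02, 0.03, 0.02 and 0.13 (mean 0.04 ± 0.06, SD, n = 4). Slc39a14 (ZIP14), which carries zinc, iron and manganese, ranged from 501 to 614 in wild type and from 444 to 645 in labelled knockout. Its log2 ratios of 0.05, 0.04, -0.04 and -0.09 averaged -0.01 ± 0.07 (SD, n = 4), and became 0.30 under median centring, which is close to the median of all genes there. Neither mean exceeded its SD.

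**Figure D2:**
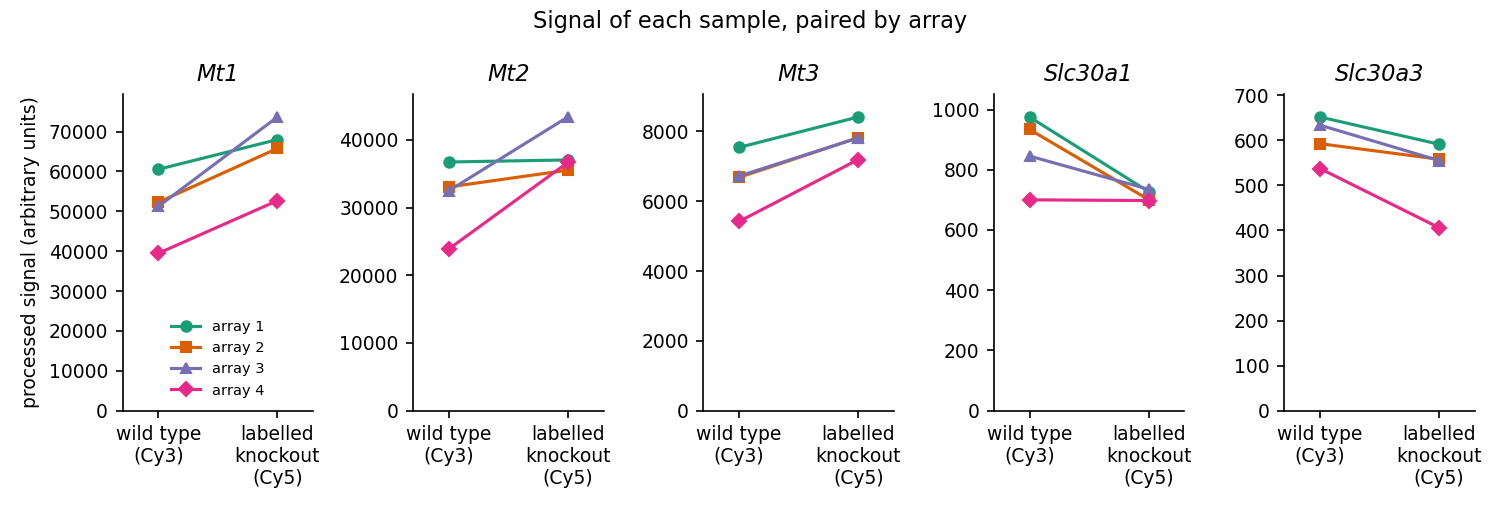
Processed signal in arbitrary units (vertical axis, from 0) of each wild-type and labelled knockout sample for 5 of the genes, with lines joining the samples of 1 array. Mt1, Mt2 and Mt3 rise along every line and Slc30a3 falls along every line; the Slc30a1 line of array 4 is flat (700.1 and 698).

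The promoters are shown because Mt1, Mt2 and Slc30a1 are textbook MTF1 targets whose mean ratios went in unlike directions. Under median centring all were positive, but the median of all genes was then 0.28. Mt1 (1.06) and Mt2 (0.90) lay above that median and Slc30a1 (0.10) below it. RefSeq promoters (build GRCm38.p6) were found for 8 of the 9 genes, with 10 start sites in all. Below are the 250 bases before the annotated start, 5′ to 3′ on the plus strand, with the metal response element core in capitals (TGCACNC or TGCGCNC, either strand). They are Mt1 at chr8:94178839-94179088, Mt2 at chr8:94172368-94172617, Mt3 at chr8:94152357-94152606 and Slc30a1 at chr1:191906531-191906780.
Mt1: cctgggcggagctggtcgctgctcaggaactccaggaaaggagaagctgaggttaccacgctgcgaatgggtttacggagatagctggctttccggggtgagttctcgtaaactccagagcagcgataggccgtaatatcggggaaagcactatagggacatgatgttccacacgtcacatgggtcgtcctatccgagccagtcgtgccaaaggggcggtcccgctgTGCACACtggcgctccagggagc
Mt2: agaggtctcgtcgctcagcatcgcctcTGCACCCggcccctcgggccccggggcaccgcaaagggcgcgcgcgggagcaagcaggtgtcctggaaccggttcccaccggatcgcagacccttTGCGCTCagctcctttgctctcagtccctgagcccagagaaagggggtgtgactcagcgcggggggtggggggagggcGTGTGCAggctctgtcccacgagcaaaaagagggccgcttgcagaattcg
Mt3: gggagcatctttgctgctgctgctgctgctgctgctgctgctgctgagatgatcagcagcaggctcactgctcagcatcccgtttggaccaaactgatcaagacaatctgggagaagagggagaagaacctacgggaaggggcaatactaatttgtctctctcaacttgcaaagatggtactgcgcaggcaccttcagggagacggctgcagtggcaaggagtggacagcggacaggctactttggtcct
Slc30a1: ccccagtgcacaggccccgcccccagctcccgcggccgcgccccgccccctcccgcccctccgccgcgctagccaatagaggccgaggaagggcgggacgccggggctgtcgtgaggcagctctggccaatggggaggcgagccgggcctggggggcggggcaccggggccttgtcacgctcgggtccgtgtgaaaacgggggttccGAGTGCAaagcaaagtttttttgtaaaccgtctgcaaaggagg
Together with the first 50 bases after the start, the windows held 3 cores in Mt1, 4 in Mt2, 1 in Mt3 and 2 in Slc30a1. In Mt1 they began at positions -23, 3 and 21 relative to the start, and in Mt2 at -223, -128, -50 and 5. Slc30a10 held 3, of which 2 overlapped, and 1 of the 2 starts of Slc30a3 held 1. The windows of Mtf1 and of both Slc39a10 starts held none of these letters.

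At least 1 core was present in 25.7% of all 32851 RefSeq promoters of the same length, at least 3 in 1.97% and at least 4 in 0.517%. Of the 8 genes with a window, 6 held a core, or 5 when only the bases before the start were searched. An antioxidant response element core (TGACNNNGC, either strand), the motif of NRF2, was found once in Mt2 and once in Slc30a1, and in 12.4% of all promoters. The E-box CACGTG was in none of these windows and in 7.15% of all. In these arrays, the mean log2 ratio was 0.35 for Mt2 (4 cores), 0.45 for Mt1 (3), 0.06 for Slc30a10 (3) and -0.23 for Slc30a1 (2). Mt3, with 1 core, read 0.25, and Slc30a3, with 1 at 1 of its starts, read -0.18. Mtf1 and Slc39a10, with none, read 0.22 and 0.04. Under median centring Slc30a1 read 0.10 and Slc30a3 0.13, both below the all-gene median of 0.28 there. A link between cores and ratios was not tested. A match is a stretch of letters and not a measured binding site, and bases outside the window were not searched. By RefSeq order on chromosome 8, Mt4, Mt3, Mt2 and Mt1 follow one another between Bbs2 and Nup93.

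Mt1 was among the brightest genes of the array, with 88 of the tested genes, or 0.558%, brighter. Its raw median pixel signal was 1300 to 1949 times the local background, and no spot was saturated. Ratios of very bright spots can depend on dye and normalization, so Mt1 was set against the 55 other genes whose mean log2 intensity lay within 0.25 of its own. These had a median log2 ratio of 0.12 (quartiles 0.05 and 0.22), 85.5% of them were above 0, and 38.2% were called higher against 1.82% lower. The genes as bright as Mt1 were thus called higher more often than the 9.12% of all genes. None of the 55 reached the ratio of Mt1. With the window widened to 0.5, 1 of 116 did (0.862%).

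Against these genes' median on each array, Mt1 stood higher by 0.13, 0.29, 0.48 and 0.37 (mean 0.32 ± 0.14, SD, n = 4). Of the 88 genes brighter than Mt1, 16 had a higher log2 ratio than it, with a median of 0.24 over all 88 and a maximum of 0.76. From the processed signals, where 63 genes were equally bright, their median was 0.01, 7.94% were called higher and 9.52% lower, and Mt1 read 0.36 with none beyond it. Over all 15759 tested genes, the processed signals gave calls for 8.43% in either direction, 779 higher and 550 lower. Genes within 0.25 of Mt1 in brightness thus had a median of 0.12 under loess and 0.01 from the processed signals, and none of them reached Mt1 under either. The 88 genes brighter than Mt1 were not recomputed from the processed signals.

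Genes as bright as Mt2 or Mt3 lay closer to 0. For Mt2, 142 equally bright genes had a median of 0.02 (quartiles -0.07 and 0.10) with 12.0% called higher and 7.04% lower, and none lay beyond Mt2. Relative to them Mt2 was higher by 0.06, 0.13, 0.48 and 0.65. For Mt3, 22 of 570 equally bright genes (3.86%) lay beyond it, and it stood above their median by 0.17, 0.21, 0.24 and 0.42. Among genes as bright as Mtf1, 7.92% had a higher ratio; 2.98% lay below Slc30a1 and 8.93% below Slc30a3. Slc30a10, Slc39a10 and Slc39a14 lay well inside the spread of their equals, with 40.3%, 41.9% and 45.3% beyond them.

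**Figure D3:**
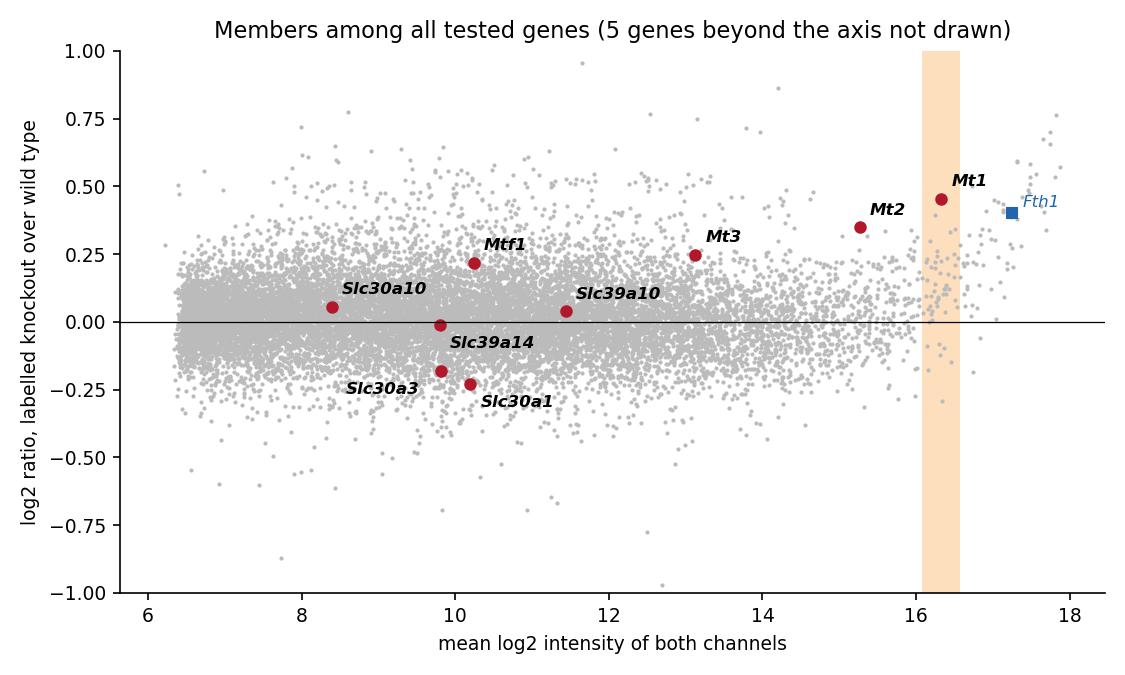
Mean log2 ratio of labelled knockout over wild type against mean log2 intensity for the tested genes (grey), with the 9 genes in red, Fth1 in blue and the brightness window of Mt1 shaded; 5 genes beyond the axis are not drawn. Mt1 and Mt2 lie at the bright end, where the cloud itself sits above 0 around Mt1 (median 0.12), and Slc30a10 is the dimmest of the 9, with 67.4% of tested genes brighter.

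**Figure D4:**
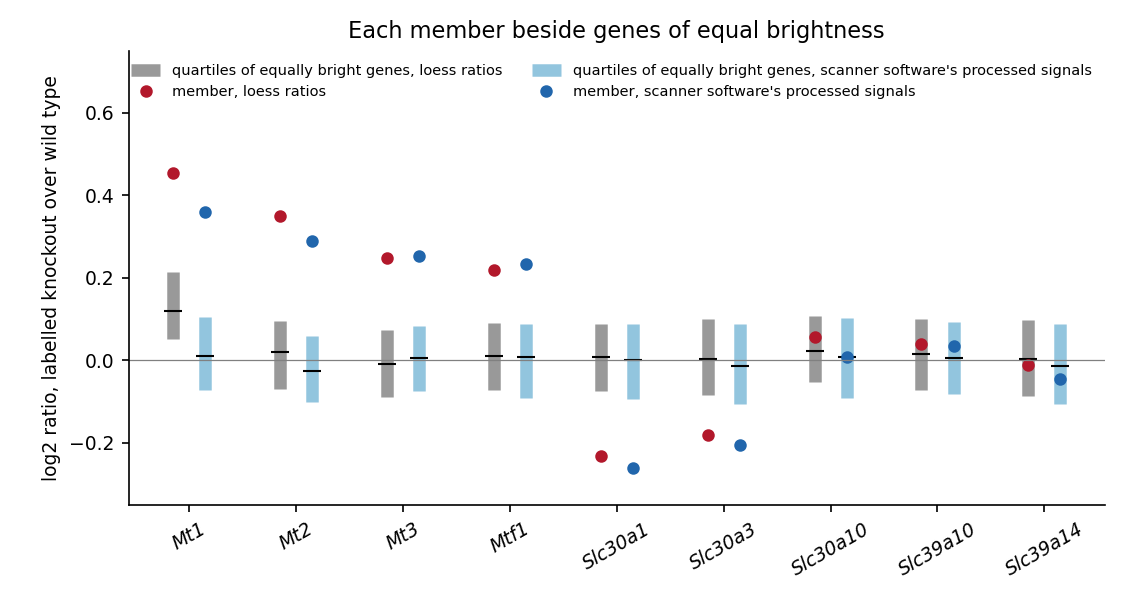
Log2 ratio of each of the 9 genes (points) beside the median (line) and quartiles (bar) of the tested genes within 0.25 log2 units of its brightness, from loess ratios (red, grey) and from the processed signals (blue). Mt1 and Mt2 stand above the quartiles of 55 and 142 equals (63 and 131 from the processed signals). Mt3 and Mtf1 also stand above the quartiles of their equals, and Slc30a1 and Slc30a3 below them, from both kinds of ratio. Slc30a10, Slc39a10 and Slc39a14 fall close to the median.

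Over 10 lists of related genes, 9 of 90 tested genes were called (10% against 15.0% of all genes), 6 higher and 3 lower. The share of all tested genes at an unadjusted limma p under 0.05 was not counted. It cannot be below the 15.0% called, so nothing is read from the unadjusted counts given for the lists. Of these 9 calls, 3 were zinc importers. Of 6 further ZnT exporters tested, limma called 0, with 0 at an unadjusted p under 0.05; their log2 ratios ran from -0.06 (Slc30a2) to 0.07 (Slc30a5). Slc30a8, the ZnT8 of pancreatic islets, was not tested. Of 11 further ZIP importers tested, 1 was higher and 2 were lower, with a median of 0.00. Slc39a7 (ZIP7), which releases zinc from the endoplasmic reticulum, was lower by -0.25, -0.20, -0.26 and -0.23 on the 4 arrays (mean -0.23 ± 0.03, SD, n = 4; limma adjusted p = 0.0123). Its 4 values were close together, and 2.92% of 343 equally bright genes lay below it; it read 0.24 under median centring, below the all-gene median of 0.28. Without array 2 or array 3, its adjusted p was 0.0552 or 0.0566.

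The other called importers were smaller in effect. Slc39a13 (ZIP13), a Golgi and vesicle zinc transporter, was higher at 0.16 ± 0.04 (SD, n = 4; limma adjusted p = 0.0364). Slc39a6 (ZIP6), a plasma membrane relative of Slc39a10, was lower at -0.15 ± 0.02 (SD, n = 4; limma adjusted p = 0.0426). It read 0.22 under median centring, below the all-gene median of 0.28 there. Both lost their call when any 1 array was left out. Slc39a5 was not tested.

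Beside the metallothioneins and Slc30a1, 4 further genes listed as MTF1 targets were tested and 1 was called. Selenow, a small selenoprotein also named as an MTF1 target, was higher by 0.27 ± 0.09 (SD, n = 4; limma adjusted p = 0.0152). Equally bright genes had a median of 0.08, and 3.80% of 79 lay beyond Selenow; the call was lost without array 1, 2 or 3 (adjusted p = 0.0576, 0.0729 and 0.0575). Gclc, the catalytic subunit of glutamate-cysteine ligase, had a log2 ratio of 0.09, Csrp1 of 0.07 and Ndrg1, a relative of Ndrg2, of -0.02; none of these 3 passed.

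Genes that act on vesicular or synaptic zinc showed no called change. Of 11 tested, among them the AP-3 adaptor subunits that sort ZnT3 to synaptic vesicles and the zinc-inhibited NMDA receptor subunits, limma called 0, with 2 at an unadjusted p under 0.05, and their median was -0.07. Grin2b had a log2 ratio of -0.17 ± 0.23 (SD, n = 4; limma adjusted p = 0.197) and 0.01 at another probe. Array 4 alone read -0.48, and without it Grin2b averaged -0.06. P2rx4, a zinc-modulated purine receptor, read -0.14 ± 0.08 (SD, n = 4; limma adjusted p = 0.0777). Under median centring Grin2b read 0.20 and P2rx4 0.24, both below the all-gene median of 0.28 there. The zinc receptor Gpr39 was not tested.

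Among genes for other metals, 12 copper genes held 1 call. Cox11, a copper chaperone of cytochrome oxidase, was lower at -0.18 ± 0.07 (SD, n = 4; limma adjusted p = 0.0354). It was 0.19 under median centring, below the all-gene median of 0.28 there. Cox11 lost its call without array 1, 2 or 3 (limma adjusted p = 0.116, 0.128 and 0.107). Of 15 iron genes, 2 were higher. Fth1, the ferritin heavy chain, was higher at 0.40 ± 0.08 (SD, n = 4; limma adjusted p = 0.00355) and kept its call whichever array was left out. Only 26 genes were as bright as Fth1, their median was also 0.40, and 13 of the 26 lay beyond it; from the processed signals Fth1 read 0.25. Fth1 has processed pseudogenes that may share its probe. Cp, the ferroxidase ceruloplasmin made by astrocytes, was higher at 0.35 ± 0.16 (SD, n = 4; limma adjusted p = 0.0176), with 1.86% of 1024 equally bright genes beyond it. Its limma adjusted p was 0.0761 without array 2, 0.056 from the processed signals and 0.156 with unpaired channels.

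Genes of the metal and oxidative stress responses and of the IL-6 and STAT3 response were examined beside Mt1 and Mt2. Of 9 metal and oxidative stress genes tested, limma called 0, with 2 at an unadjusted p under 0.05; Hmox1, the haem oxygenase of NRF2 and heavy metal responses, read 0.20 ± 0.21 (SD, n = 4; limma adjusted p = 0.121), with 0.03 at another probe, and Txnrd1 0.18 ± 0.16 (SD, n = 4; limma adjusted p = 0.0934). Of 9 genes of the IL-6 and STAT3 response, Il6st, the shared receptor subunit gp130, was higher at 0.26 ± 0.08 (SD, n = 4; limma adjusted p = 0.0151); without array 1 or 2 its adjusted p was 0.0576 or 0.0721. The median log2 ratios of these groups were 0.03 and 0.10, against 0.01 over all tested genes. Hmox1 was called without array 4 (0.29, limma adjusted p = 0.0396) and read 0.12 without array 1. Under median centring it was also called (0.41, limma adjusted p = 0.000269). That setting called 82.3% of all tested genes and had an all-gene median of 0.28, so little can be read from the call.

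The 12 glucocorticoid-induced genes had 1 call, Nfkbia, the NF-kB inhibitor, which was higher at 0.18 ± 0.07 (SD, n = 4; limma adjusted p = 0.0333) and lost its call without any 1 array. Their median log2 ratio was 0.06 on array 1, -0.03 on array 2, 0.25 on array 3 and 0.31 on array 4. A split between these arrays was noticed only after the values were seen. In 6 of the 12, both arrays 1 and 2 were below 0 and both arrays 3 and 4 above it, as in 5.22% of all tested genes. Plin4, a lipid droplet protein, read -0.14, -0.52, 0.86 and 1.16; Sult1a1, a sulfotransferase, read -0.67, -0.20, 0.43 and 0.60. Fkbp5, the glucocorticoid receptor co-chaperone, read -0.20, -0.23, 0.40 and 0.27. The others were Sgk1, Tsc22d3 (on array 2 by less than 0.01) and Zbtb16. The list did not move as 1 block: Dusp1, a phosphatase that is also an immediate-early gene, read 1.15, 0.82, -0.30 and 0.51, and Per1, a clock gene, read 0.83, 0.53, -0.15 and 0.14.

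No member crossed 0 in that way. In 4 of the 9 genes (Mt1, Mt2, Mt3 and Slc30a1), both arrays 3 and 4 lay above both arrays 1 and 2, as in 22.5% of all tested genes. For Mt2 the gap between the 2 pairs of arrays was 0.09 and 0.16 against 0.50 and 0.64. It ran the same way as in those 6 of the 12 glucocorticoid-induced genes. In Dusp1, Per1, Errfi1 (0.26, 0.17, -0.06 and -0.06) and Cdkn1a (0.15, 0.09, 0.05 and -0.15) it ran the other way. The part of glucocorticoids in the Mt2 ratio was not tested. The same pairs of arrays were also the most alike over all genes (r = 0.71 and 0.59).

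**Figure D5:**
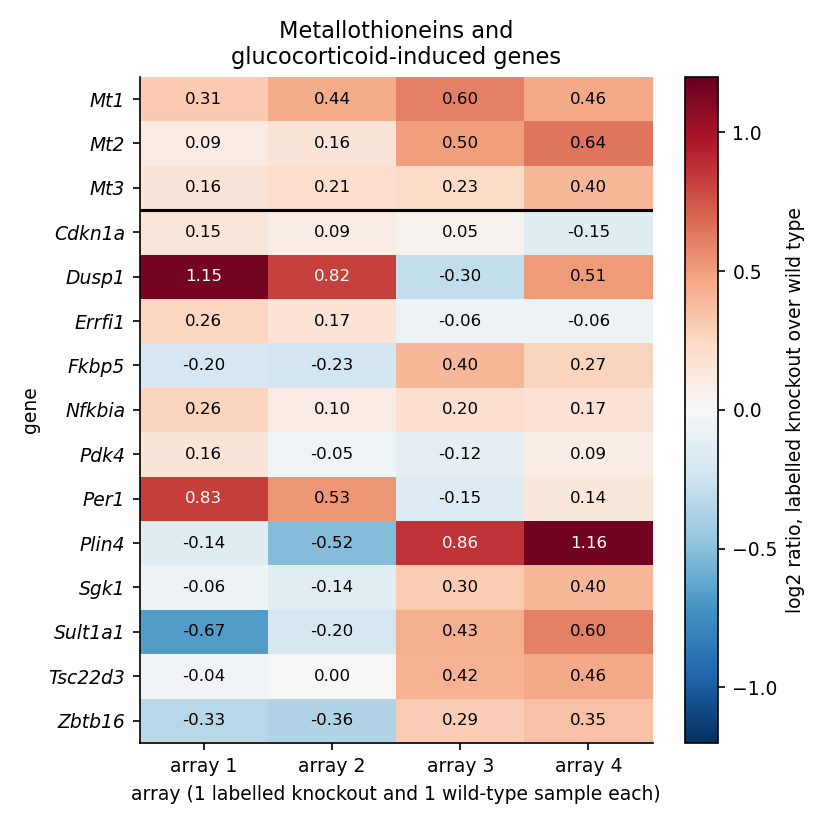
Log2 ratio of labelled knockout over wild type by array (columns) for the metallothioneins and the glucocorticoid-induced genes (1 gene per line; colour and printed value give the ratio). Mt1, Mt2 and Mt3 are above 0 in every column, while 6 of the 12 glucocorticoid-induced genes are below 0 in columns 1 and 2 and above 0 in columns 3 and 4.

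In whole cortex, fewer cells of a type and less RNA per cell cannot be told apart, so markers of the cells that make these genes are given beside them. Over all tested genes, 9.12% were called higher and 5.84% lower. Their share at an unadjusted limma p under 0.05 was not counted and cannot be below the 15.0% called. Of 10 astrocyte markers, limma called 0, with 6 at an unadjusted p under 0.05, and their median was 0.15; their summed processed signal was 47200 to 56989 in wild type and 50820 to 62158 in labelled knockout. Of 6 excitatory neuron markers, 2 were higher and none lower, with 4 at an unadjusted p under 0.05. Their median was 0.17, beside the lower mean of the neuronal gene Slc30a3. Of 8 endothelial markers, 1 was higher, with 4 at an unadjusted p under 0.05 and a median of 0.04. Of 6 microglial markers 2 were higher, with 3 at an unadjusted p under 0.05. Of 6 oligodendrocyte and 6 inhibitory neuron markers limma called 0 and 0, with 1 and 2 at an unadjusted p under 0.05.

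Markers of the meninges, which also make metallothioneins, had the highest median of the 9 marker lists (0.46). Of 8, 7 were called higher and none lower, against 9.12% and 5.84% of all tested genes. Their medians were 0.58, 0.45, 0.25 and 0.64 on the 4 arrays. Their summed processed signal was 4367 to 8674 in wild type and 6629 to 10204 in labelled knockout. Array 3 had the lowest meningeal median and the highest Mt1 ratio, and array 4 had the highest meningeal median and the highest Mt2 and Mt3 ratios. The count was 4 of 8 from the processed signals, 4 without array 1 or array 2, and 1 with the channels as separate samples. Choroid plexus markers summed to 169 to 234 in wild type and 159 to 278 in labelled knockout, with 0 of 5 called by limma and 3 at an unadjusted p under 0.05. Blood markers, 0 of 5 called with 0 at an unadjusted p under 0.05, had medians of -0.38, -0.11, -0.06 and 0.42. The part of these cells in the metallothionein ratios was not tested.

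Slc39a14 lies on chromosome 14, as does Ndrg2, 178 tested genes away among 543 on that chromosome. Of its 10 nearest tested neighbours, 5 on each side, 7 were called in 1 direction or the other, against 15.0% of all tested genes. The share called over chromosome 14 was not counted. Among the 7 were Lgi3 at 0.95 ± 0.13 (SD, n = 4; limma adjusted p = 0.000515) and Sftpc at -0.50 ± 0.13 (SD, n = 4; limma adjusted p = 0.00355). Slc39a14 itself averaged -0.01, inside this stretch. These neighbours were named after their values were seen. The 3 tested genes with array ratios nearest to those of Mt1, by Euclidean distance over the 4 arrays, were Haus4 at a distance of 0.144, Sp110 at 0.185 and Szrd1 at 0.188. Haus4, an augmin subunit, also lies on chromosome 14 and averaged 0.46 ± 0.06 (SD, n = 4). Sp110, a nuclear body gene with near copies in the mouse genome, averaged 0.49 ± 0.03, and Szrd1 averaged 0.50 ± 0.07 (both SD, n = 4). With 4 arrays, such likeness describes these libraries only.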

How the data were processed

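The genes and lists were chosen with earlier results of these data known, and every gene list carries that limit. Per the labels' protocols, 200 ng of RNeasy-extracted total RNA was amplified and labelled with Cy3 or Cy5; all 4 arrays shared 1 slide and 1 scan, by the file headers. The authors extracted images with Agilent Feature Extraction (10.7.3.1 per the submitters' processing notes; the scanner files themselves say 11.0.1.1). For each channel, per the file headers, there is a raw intensity (median pixel signal), a background, a processed signal after background subtraction and dye normalization, and for each spot a red-over-green log10 ratio. The authors also deposited log2 ratios in a table.

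Raw intensities were background-corrected (normexp, offset 50) and normalized by loess with limma 3.58.1 in R 4.3.3, control spots (1377 of each array) at weight 0, leaving out 802 outlier spots. Of 39429 probes, 27664 passed the brightness filter (1 channel or both well above background, on every array) and were tested. Symbols came from RefSeq accessions, and the brightest probe stood for a gene. An intercept-only lmFit and eBayes (residual degrees of freedom 3) was run on them, with Benjamini-Hochberg adjustment over all tested probes and a threshold of 0.05, and was tested on simulated data. The ratio already pairs same-numbered samples.

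Named were all 9 genes, up to 4 called genes of each list by size (or 2 where none was called), the 3 genes nearest Mt1, and genes chosen after their values were seen in the array split and near Slc39a14. Alternatives were the processed signals, the deposited table, median centring, no background subtraction, no filter, the mean of probes, unpaired channels, each array left out, a wider brightness window and promoter bases before the start. For the unpaired channels, mean intensities were first quantile-normalized between arrays and the channels were then fitted as separate samples. The planned protein comparison was not run, as no protein sequence was used here.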

Additional observations from a re-analysis of the deposited data

How the results depend on the processing

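Precision is limited by 4 arrays on 1 slide with no dye exchange. From the processed signals, 1329 genes of the whole array, 4 of the listed genes and 1 of the 9 genes (Mt1) were called. The main setting called 2357, 9 and 4, and the deposited table again 1329, 4 and 1. Cp, Il6st, Nfkbia, Cox11, Slc39a13 and Slc39a6 lost their calls both from the processed signals and in the deposited table (limma adjusted p from 0.0558 to 0.102). Median centring without loess called 12971, 77 and 8, with a median of 0.28 over all genes; Mt1 then read 1.06, Mt2 0.90, Mt3 0.67, Mtf1 0.55, Slc39a10 0.41, Slc39a14 0.30, Slc30a10 0.23, Slc30a3 0.13 and Slc30a1 0.10. Under it Slc39a7 (0.24), Slc39a6 (0.22), Grin2b (0.20), P2rx4 (0.24) and Cox11 (0.19) also turned positive, while Mt4 fell to -0.44. Mt4 read 0.024 from the processed signals, 0.024 in the deposited table and 0.018 without background subtraction. Without the pairing of samples by replicate number (no replicate block), 671 genes, 3 listed genes and 2 of the 9 (Mt1 and Mt3) were called. That setting also quantile-normalized the mean intensities between arrays, so the effect of dropping the pairing alone is not known. From the processed signals the share of equally bright genes beyond Slc30a10 was 50.5% and beyond Slc39a14 40.4%. Leaving out 1 array at a time gave 452 to 1544 called genes, 1 to 7 listed genes and 1 to 3 of the 9; Mt1 then ranged from 0.40 to 0.50, Mt2 from 0.25 to 0.43, Mt3 from 0.20 to 0.28, Mtf1 from 0.17 to 0.28, Slc30a1 from -0.32 to -0.16, Slc30a3 from -0.22 to -0.12, Slc30a10 from 0.03 to 0.11, Slc39a10 from 0.01 to 0.06 and Slc39a14 from -0.03 to 0.02. The fewest calls came without array 2. The causes of these shifts were not tested.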
